A study of Homo sapiens with 6 samples.

Results

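PAR-CLIP background was compared between 2 gel slices, one cut at about 35 kDa (G35) and one at about 45 kDa (G45). Both libraries came from HEK293 cells that stably carried a doxycycline-inducible FLAG-tagged green fluorescent protein (GFP), which is not known to bind RNA and serves as a control bait. HEK293 is a widely used line derived from human embryonic kidney. The cells received 4-thiouridine (4SU) and doxycycline overnight and were crosslinked with long-wave UV light, after which the RNA was cut with RNase T1, GFP was immunoprecipitated with the FLAG M2 antibody, and the labeled complexes were separated by size. All members of the comparison were taken from the site tables of these libraries, which held 259337 sites for G35 and 379718 for G45, together 639055 of the 10639684 sites of the 6 libraries of the series. A site is a stretch of the genome covered by overlapping reads, and its count is its number of reads. G35 held 6187300 reads and G45 held 7539669. Counts were compared as RPM, the reads of a site or gene divided by all reads of its library and scaled to 1000000. On this scale 3 reads are 0.485 RPM in G35 and 0.398 RPM in G45.

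Each slice was a single library, so no difference between slices could be set against a spread between replicates, and no test was possible. Values are given with 95% intervals that cover counting error only, because no molecular identifiers are described for these reads. The only replicate pair in the series, PAR-CLIP replicates 1 and 2 of the RNA-binding protein HuR, is used to show how far 2 libraries of the same protein differ under the same rule. These replicates were unlike in depth, with 9525265 and 32111810 reads, and 95431 and 1940569 sites of 5 or more reads. They therefore do not measure the spread between replicates of like depth, such as G35 and G45 have. The slices shared most of their reads. Sites of both slices that overlapped on the same strand were joined into 566906 merged sites, and those with reads in both slices held 88.0% of the G35 reads and 88.2% of the G45 reads. In each library 20000 of 20000 sites drawn outside the mitochondrial genome matched the GRCh37 (hg19) sequence at their stated position.

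In PAR-CLIP, a crosslinked 4SU base is read as C in place of T, so that T-to-C conversions are used as a mark of contacts between RNA and protein. The paper adds that 4SU RNA without a crosslink also converts at a lower rate. It holds that some background conversions may not come from contacts with protein. RNase T1 cuts after G. Several classes of small RNA work with their own proteins: microRNAs are held by Argonaute proteins and pair with targets through their seed, tRNA precursors end in a run of U at which RNA polymerase III stops, spliceosomal small nuclear RNAs (snRNAs) work in splicing, and box C/D small nucleolar RNAs (snoRNAs) guide methylation of ribosomal RNA (rRNA).

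MicroRNAs were higher in G35. The following mature sequences, from RefSeq (GRCh38.p14), are those that matched a site at least 4-fold higher in G35 over at least 18 bases, with the seed (bases 2 to 8) in capitals, and miR-93-5p and miR-20a-5p are added to show the 4 members of the AAAGUGC seed group together.
hsa-miR-17-5p: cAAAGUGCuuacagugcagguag
hsa-miR-106b-5p: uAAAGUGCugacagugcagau
hsa-miR-93-5p: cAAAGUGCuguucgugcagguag
hsa-miR-20a-5p: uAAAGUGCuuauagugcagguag
hsa-miR-140-3p: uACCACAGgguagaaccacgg
hsa-miR-25-3p: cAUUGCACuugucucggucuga
hsa-miR-30e-5p: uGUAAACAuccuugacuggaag
hsa-miR-223-3p: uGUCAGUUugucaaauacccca
hsa-miR-148b-3p: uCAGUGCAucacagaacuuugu
hsa-miR-183-5p: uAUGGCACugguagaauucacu
hsa-miR-744-5p: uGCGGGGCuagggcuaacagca
hsa-let-7c-5p: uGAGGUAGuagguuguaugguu
hsa-miR-424-5p: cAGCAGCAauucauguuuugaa
Shown next for contrast are the microRNA with the most reads, its near copy on the X chromosome, and the pair of matched microRNAs with a lower level in G35 whose interval left out 0.
hsa-miR-18a-5p: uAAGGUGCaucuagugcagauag
hsa-miR-18b-5p: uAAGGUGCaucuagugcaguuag
hsa-miR-100-5p: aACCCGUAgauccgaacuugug
hsa-miR-155-5p: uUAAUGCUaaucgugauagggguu

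Of 3049 microRNA genes in GENCODE, 199 had a read in either slice and 40 had the 50 reads over both slices that the gene comparison required. Of these 40, 11 (27.5%) were at least 4-fold higher in G35 and 0 were at least 4-fold higher in G45, while over all 9054 genes compared the shares were 2.67% and 2.22%, or 4.89% in either direction. The median log2 ratio of G35 over G45 was 1.35 for the microRNA genes and 0.07 for all genes, and 37 of 40 lay above 0. The ratio depended on depth and assignment. Of 13 microRNA genes with 200 or more reads, 2 were at least 4-fold higher in G35, with a median of 0.83, and of the 5 left without sites that have more than 1 candidate gene, 0 were, with a median of 0.13. The authors' own annotation marked 50 merged sites of 50 or more reads as miRNA. Of these, 13 were at least 4-fold higher in G35, 0 were so in G45, and 46 had a log2 ratio above 0. Over all 12598 merged sites of that depth, 8.77% were at least 4-fold higher in G35 and 9.23% in G45, and 5539 had a log2 ratio above 0. By the gene rule, HuR replicate 1 was at least 4-fold higher than replicate 2 at 6.99% of 19765 genes and lower at 8.38%, or 15.4% together, and after scaling by the median ratio these shares were 11.7%, 1.25% and 12.9%. At 31 merged sites annotated as miRNA, the median log2 ratio of HuR replicate 1 over replicate 2, less that of all merged sites, was -0.80. The median of the 50 sites of G35 over G45 was 1.37, and that of all merged sites -0.18. For tRNA the same HuR value was 1.52.

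The microRNAs of the AAAGUGC seed, the miR-17 family, were higher in G35 as a group. The site of miR-17-5p, at chr13:92002872-92002895 on the plus strand in MIR17HG, held 139 reads in G35 and 26 in G45. The site of miR-106b-5p, at chr7:99691665-99691686 on the minus strand, held 207 and 43 reads. These ratios were 2.68 (interval 2.09 to 3.37) and 2.54 on the log2 scale. The site of miR-93-5p held 152 and 46 reads, and that of miR-20a-5p 98 and 44. Summed over the 4 members, G35 held 596 reads and G45 held 159, a log2 ratio of 2.19.

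The highest ratio of all belonged to MIR10B, a microRNA encoded within the HOXD cluster, with 83 reads in G35 and 9 in G45, a log2 ratio of 3.42 (interval 2.50 to 4.67). The MIR186 site held 67 and 9 reads. miR-25-3p, which is cut from the same precursor transcript as miR-106b and miR-93, held 44 and 6 reads. miR-140-3p held 46 and 6 reads. These rest on few G45 reads, and their intervals are correspondingly wide. Better covered were the site of miR-30e-5p, at chr1:41220043-41220066 on the plus strand, with 179 reads in G35 and 29 in G45, and that of miR-223-3p, with 114 and 19. The let-7 family was split in size but not in direction. let-7c-5p held 58 and 15 reads, let-7g-5p 60 and 19, and let-7b-5p, the most abundant of the 3, 451 and 371. Over their GAGGUAG seed the summed log2 ratio was 0.78.

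Abundant microRNAs differed less. The 10 sites of 500 or more reads over both slices had a median log2 ratio of 0.59, with a highest value of 1.54, while the 40 sites below that depth had a median of 1.63. miR-21-5p held 1034 reads in G35 and 637 in G45, and miR-22-3p held 1891 and 1171, with log2 ratios of 0.98 each. miR-18a-5p, a member of the miR-17 cluster, held 22934 reads in G35 and 23832 in G45, or 67.9% and 74.9% of the reads at these 50 sites, and its log2 ratio was only 0.23. miR-18b-5p, with 1580 and 1970 reads, was level between the slices. Lower in G35 were miR-100-5p, with 652 and 1099 reads, and miR-155-5p, with 69 and 132. miR-100-5p shares its seed with miR-99a-5p, which held 83 and 46 reads and was higher in G35. Without the miR-18a-5p site, the microRNA sites held 10867 reads in G35 and 8004 in G45, 1.65 times the RPM, compared to 1.29 times with it.

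**Figure D1:**
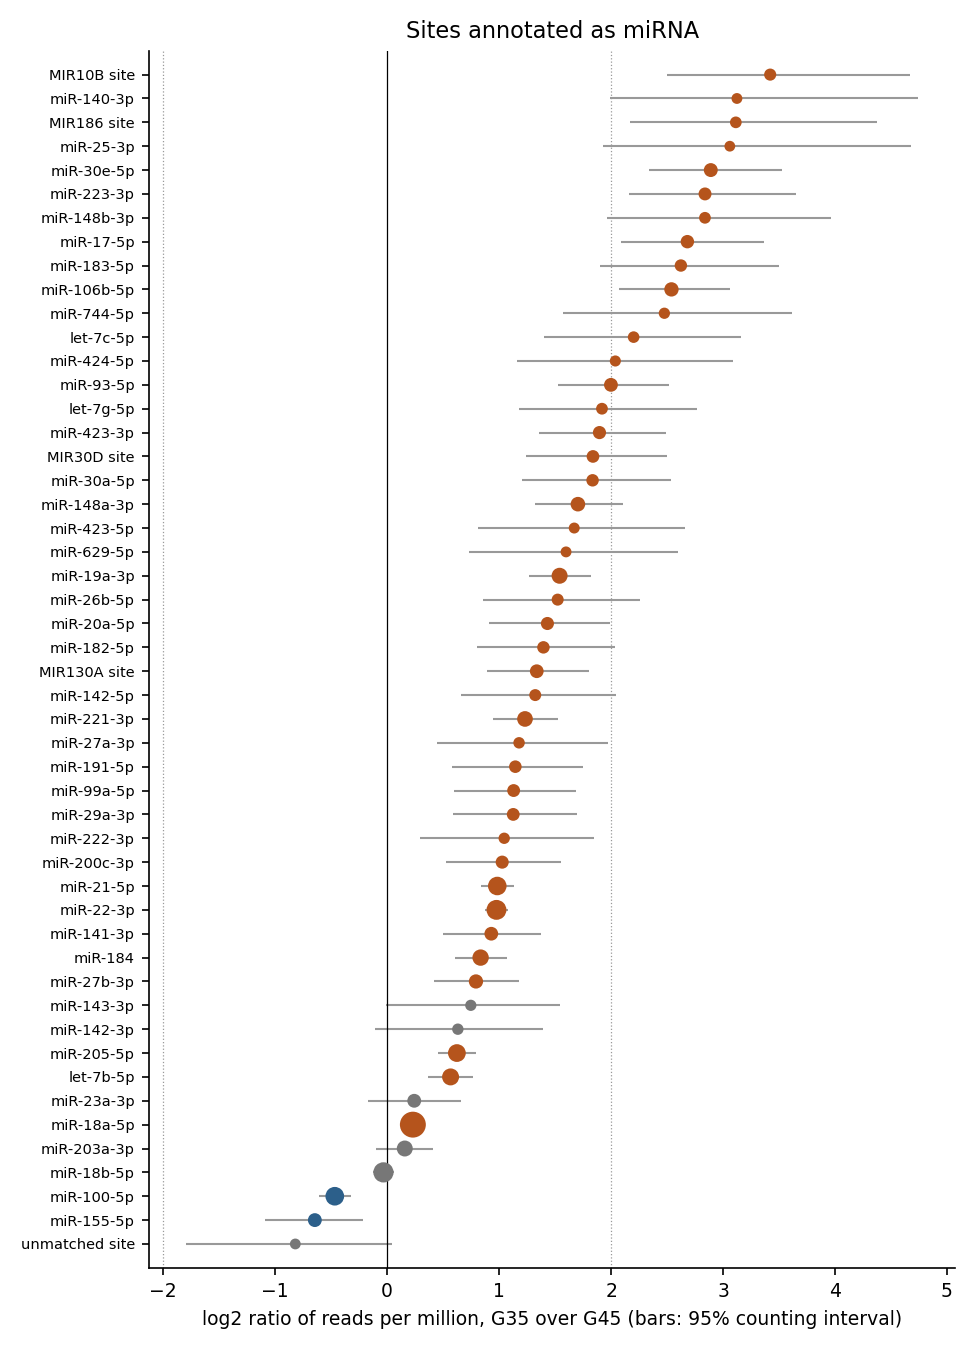
The log2 ratio of RPM, G35 over G45, is shown for the 50 merged sites annotated as miRNA, with 95% counting intervals as bars and larger points for more reads; orange points have an interval above 0, blue points one below 0 and gray points one that holds 0. Of the 50 points, 46 lie to the right of 0, and dotted lines mark 4-fold.

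MicroRNA sites carried few conversions in either slice. In 37 of the 50 sites there were under 10 conversion events per 100 reads in both slices. Over all sites of the class the value was 7.02 in G35 and 7.39 in G45. miR-18b-5p, with 61.4 and 57.1 events per 100 reads, and miR-184, with 58.1 and 64.2, were the exceptions with the most reads. The length of a site and its conversions were also set beside its ratio. Merged sites of 21 to 25 bases with under 10 events per 100 reads, outside the small RNA and rRNA classes, had a median log2 ratio of -0.29 over 551 sites, and the 46 microRNA sites of that length had a median of 1.38.

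tRNA sites also stood to the side of G35. Of 151 merged sites annotated as tRNA, 110 were higher in G35 and 41 in G45. Their median log2 ratio was 0.50, compared to -0.18 over all merged sites. Between the HuR replicates, the median of 141 tRNA sites, less that of all merged sites, was larger, at 1.52. At least 4-fold higher were 19 in G35 and 3 in G45, or 12.6% and 1.99%, compared to 8.77% and 9.23% of all merged sites. The share toward G35 was thus not far above that of all sites, and the share toward G45 was below it. The tRNA site with the most reads, at chrX:116634116-116634150 on the plus strand, held 5760 reads in G35 and 6298 in G45, a log2 ratio of 0.16. The next held 3167 and 2542, and 2271 and 1644 reads, with log2 ratios of 0.60 and 0.75.

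Of the 19 tRNA sites at least 4-fold higher in G35, 15 ended in a run of T, the DNA letters for the U run of a tRNA precursor. Of all tRNA sites with such an ending, whatever their ratio, the 10 with the most reads among those of at most 30 bases in the deeper slice are printed with the 3′ run in capitals, and each is the GRCh37 sequence of the site in that slice. The named interval is the merged site, which can be longer by a few bases.
tRNA site chr1:161500121-161500149, minus strand: cgaatcccactcctgacaatatgtgTTTT
tRNA site chr5:180633922-180633949, plus strand: cgatccccggcatctccagtgtagTTTT
tRNA site chr6:28831451-28831479, minus strand: caatccccggcacctccagcttcaTTTTT
tRNA site chr6:26312813-26312841, minus strand: cgaatcctgccgactacggcgtgcTTTTT
tRNA site chr16:3239688-3239712, plus strand: caaatcccggacgagcccggcTTTT
tRNA site chr6:26521501-26521530, plus strand: cgaatcccactcctgacagttcgtacTTTT
tRNA site chr6:28921031-28921061, minus strand: cgaacctcagagggggcagctgccaTTTT
tRNA site chr6:27181611-27181640, minus strand: cgactcctggctggctcggaggcttaTTTT
tRNA site chr6:28806213-28806238, minus strand: caatccccggcacctccattccTTTT
tRNA site chr1:167684719-167684742, minus strand: caaatcccggacgagccctgTTTT
In the order printed, these sites held 121, 78, 63, 67, 63, 49, 59, 34, 51 and 51 reads in G35, against 43, 24, 34, 9, 8, 21, 9, 33, 9 and 4 reads in G45. All 10 were higher in G35 by RPM. Their log2 ratios ran from 0.33, at chr6:27181611-27181640, whose interval held 0, to 3.80, at chr1:167684719-167684742.

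Of the 151 tRNA sites, 53 ended in 4 or more T, and 49 of these were higher in G35. Their median log2 ratio was 1.49, and 15 were at least 4-fold higher in G35 against 0 in G45. The other 98 tRNA sites had a median of 0.23, with 4 and 3 sites past 4-fold. Outside tRNA, the 96 merged sites that ended in 4 or more T had a median of -0.09, compared to -0.18 over all merged sites. This split of the tRNA sites was chosen after their values were seen, and it is a description. Pooled over reads, these sites had 52.4 conversion events per 100 reads in G35 and 54.1 in G45. Single sites varied, with 26.9 and 0 at chr6:26312813-26312841, and 73.6 and 107.0 at chr1:161500121-161500149.

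**Figure D2:**
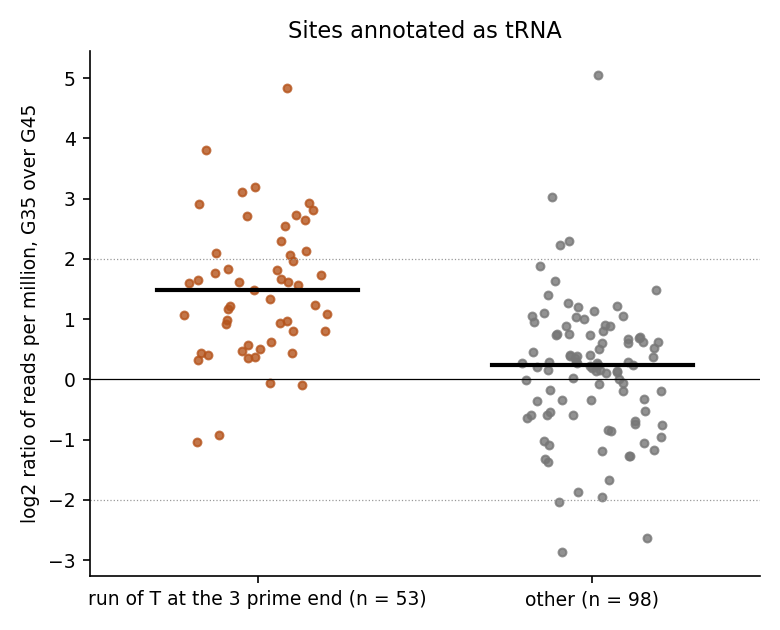
Each point is a merged tRNA site of 50 or more reads, plotted by its log2 ratio of RPM, G35 over G45, with sites that end in 4 or more T on the left and the other tRNA sites on the right; black bars are medians, at 1.49 and 0.23. On the left 49 of 53 points lie above 0, on the right 61 of 98, and dotted lines mark 4-fold.

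Sites annotated as snRNA were higher in G35 as well. Of 25 merged sites annotated as snRNA, 22 were higher in G35, with a median log2 ratio of 1.00. At least 4-fold higher in G35 were 3 sites, or 12.0%, compared to 8.77% of all merged sites, and 0 were so in G45. Among the 18 GENCODE snRNA genes compared, 2 were at least 4-fold higher in G35 and 0 in G45, with 2.67% and 2.22% over all genes. RNU1-60P, a U1-like pseudogene, held 84 reads in G35 and 9 in G45. By their symbols, the 3 sites past 4-fold, in RNU1-60P, RNU1-34P and RNU1-11P, all lie in pseudogenes. The U2-like entries with the most reads, RNU2-2P and RNU2-59P, which also carry pseudogene symbols, held 924 and 974 reads, and 679 and 410 reads. RNU5E-1, of the U5 snRNA, was at the other end with 25 and 64 reads. Reads of these multicopy genes cannot be assigned to a copy with certainty, and reads equal to several copies are lost, since the tables hold only reads that map to a single place.

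Of 6 polymerase III and RNA-protein enzyme RNAs compared, 5 had a log2 ratio above 0, with a median of 0.50, and 0 were past 4-fold in either direction, which at this number is near the shares over all genes. RNY5, a Y RNA that binds the Ro protein, held 573 reads in G35 and 664 in G45, and RN7SL2, an RNA of the signal recognition particle, held 201 and 97, a log2 ratio of 1.33. RMRP, the RNA of RNase MRP, held 476 and 394 reads, a log2 ratio of 0.56. Of 31 snoRNA and Cajal body RNA genes, 0 were at least 4-fold higher in G35 and 2 in G45, among them SNORA38 with 7 and 46 reads. Over all genes the shares were 2.67% and 2.22%, so that these counts are near the background. Their median log2 ratio was 0.20. Mitochondrial rRNA was lower in G35. Sites annotated as mitochondrial rRNA held 1559 RPM in G35 and 2605 in G45, a log2 ratio of -0.74, and MT-RNR1 held 8018 and 17180 reads.

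**Figure D3:**
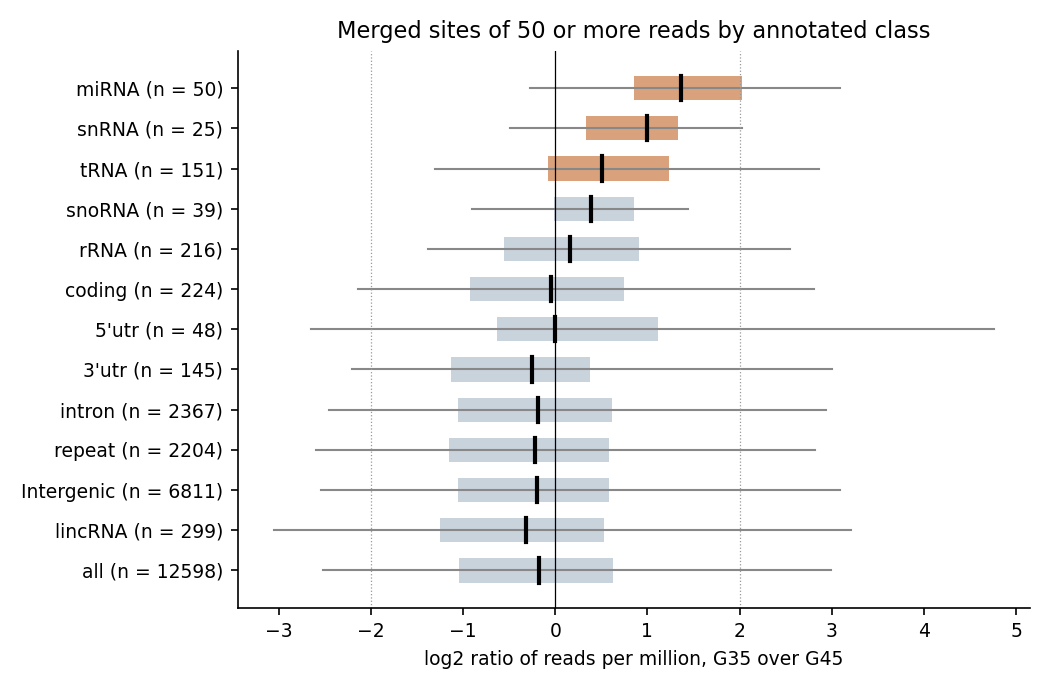
For each class of the authors' annotation, the box spans the middle 50% of merged sites of 50 or more reads by their log2 ratio of RPM, G35 over G45, the line runs from the 5th to the 95th percentile and the black bar is the median. The miRNA, snRNA and tRNA boxes, in orange, have medians of 1.37, 1.00 and 0.50, and the median of all 12598 sites is -0.18.

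In snoRNAs the slices differed in conversions more than in reads. At the 32 merged snoRNA sites with 25 or more reads in both slices, G35 held 470 conversion events on 1490 reads and G45 held 104 on 1515 reads. This came to 31.5 and 6.86 events per 100 reads, a ratio of 4.595. The gap was smaller over all sites annotated as snoRNA, of any depth, with 34.3 events per 100 reads in G35 and 15.7 in G45. In snoRNA clusters the values were 48.7 and 23.2. At the 32 sites the value was higher in G35 at 24, higher in G45 at 4 and 0 in both at the other 4, with a median difference of 22.8 per 100 reads. Of these 32 sites, 25% differed by at most 10 events per 100 reads, compared to 81.0% of all 8753 merged sites of that depth. Exact binomial intervals of events over reads are given as description, since a read can carry more than 1 event. The median log2 ratio of reads at the same sites was 0.33, from -0.89 to 1.51.

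The sites were mostly those of box C/D snoRNAs. Of the 32 sites, 20 lay in a SNORD gene, 0 lay in a SNORA gene, and the rest were given to host genes such as GAS5 and SNHG1 or to other entries. SNORD58A had 83.9 events per 100 reads in G35 (56 reads) and 6.67 in G45 (75 reads). SNORD94 had 78.4 and 4.00, on 37 and 25 reads. SNORD118, the U8 snoRNA needed for processing of large-subunit rRNA, had 48.9 and 3.51, on 88 and 57 reads. In each of these the G35 interval lay wholly above the G45 interval. SNORD117 had 58.8 in G35 and no event in its 28 G45 reads, for which the exact upper bound is 12.3 per 100. SNORD83B, with 88 and 109 reads at its deeper site, had 46.6 and 5.50. The largest difference the other way was at SNORD102, with no event on 27 reads in G35 and 4 on 33 in G45. Between the HuR replicates only 1 snoRNA site had this depth, with 11.1 and 16.1 events per 100 reads. No replicate spread of snoRNA sites can thus be set beside these values. Over all 6243 merged sites of this depth, the HuR replicates had pooled values of 48.3 and 68.3 events per 100 reads.

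**Figure D4:**
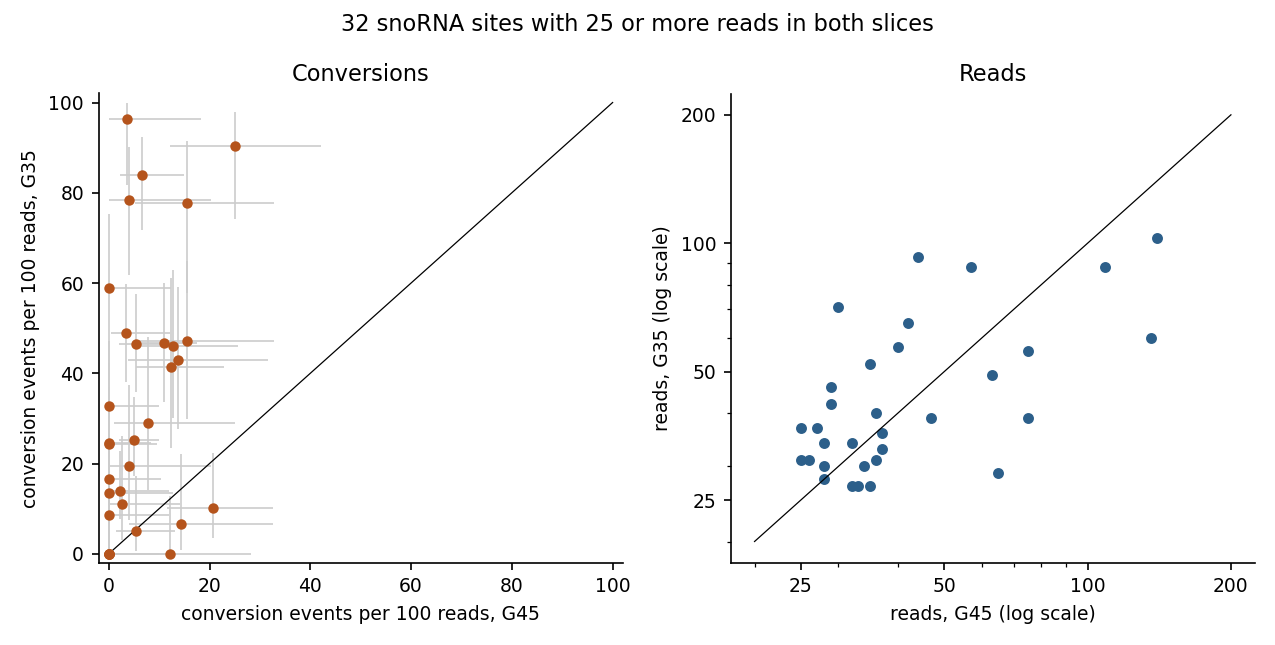
Left, conversion events per 100 reads at each of the 32 snoRNA sites in G45 (x axis) and G35 (y axis) with exact 95% binomial intervals; right, the reads of the same sites on log axes. On the left 24 points lie above the diagonal of equal values and 4 below it, while on the right the points scatter on both sides of the diagonal.

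Over all merged sites conversions were closer than at snoRNA sites. Of 8753 merged sites with 25 or more reads in both slices, 81.0% differed by at most 10 events per 100 reads, and Pearson's r across sites was 0.98 for conversion events per read and 0.85 for log2 reads. These sites lie in the same 2 libraries and are not replicates. Their medians were 96.8 events per 100 reads in G35 and 95.7 in G45. Pooled over reads, the values were 58.7 in G35 and 54.0 in G45, with 3458 sites higher in G35 and 2719 in G45. At 6243 merged sites of the HuR replicates, which were unlike in depth, the pooled values lay further apart, at 48.3 and 68.3. The value was higher in replicate 1 at 1897 of these HuR sites and in replicate 2 at 3082. Among shared G35 sites of 25 to 99 reads, 25.6% had no conversion and 52.1% had 90 or more events per 100 reads. Many values thus lay near an end of the scale, which favors a high r and a high share within 10. For snoRNA sites r was 0.36 for conversions. For the 34 microRNA and 112 tRNA sites of this depth, 94.1% and 64.3% were within 10 events per 100 reads, and for the 20 snRNA and 97 3′ UTR sites, 60% and 56.7% were. Pooled tRNA sites had 56.4 events in G35 and 49.4 in G45, snRNA sites 61.5 and 46.8, and coding sites 21.1 and 29.4. Pooled values weigh deep sites most, and for snRNA and coding sites the medians over sites went the other way. The snRNA medians were 22.6 in G35 and 32.5 in G45, with 9 sites higher in each slice. The coding medians were 61.4 and 44.2, with 60 sites higher in G35 and 41 in G45. At the HASPIN site, the deepest coding one, the values were 1.69 and 2.94.

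Lists of protein-coding gene families were close to level. Over 14 such lists, 394 members were compared, of which 2 were at least 4-fold higher in G35 and 4 in G45. The medians ran from -0.35 to 0.44 on the log2 scale. Members were taken by symbol, so that pseudogenes such as HNRNPKP3 and HSPE1P26 are among them. Intron reads count as well, so these values do not measure messenger RNA alone. MRPS31, for example, had 97.9% of its reads at 1 site and 0.715% of its G35 reads in exons. Cytosolic ribosomal protein genes had 0 of 31 past 4-fold and a median of 0.16, and RPL24, the member with the most reads, held 530 reads in G35 and 791 in G45. Translation factors had 0 of 40, DEAD and DEAH box helicases 0 of 33, hnRNP genes 0 of 30, proteasome subunits 0 of 20, nucleolar proteins 0 of 16, actin and tubulin genes 0 of 15, SR splicing factors 0 of 15 and replication-dependent histones 0 of 5. Chromosome 19 zinc finger genes had 1 of 80 higher in G35, with a median of 0.03. Each list is small, so that a count of 0 in a single list is near what the shares over all genes, 2.67% and 2.22%, would leave. Over the 394 members of the 14 lists, however, the counts of 2 and 4 were below what those shares would leave. Among the aminoacyl-tRNA synthetases, MARS2, the mitochondrial methionyl-tRNA synthetase, held 220 reads in G35 and 5 in G45, 91.6% of them at 1 site. HSP90AA1, a cytosolic chaperone, was at 19.9 RPM in G35 and 17.5 RPM in G45. Of the nuclear long noncoding RNAs, 0 of 9 passed 4-fold, and MALAT1 held 729 and 795 reads.

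At least 4-fold higher were 242 genes in G35 and 201 in G45, and these calls came mostly from single sites. Of the 443 genes, 80.4% had most of their reads at 1 merged site, compared to 35.0% of all genes compared. Only 87 of the 443 kept 50 reads without that site, and 22 of them were then still past 4-fold in the same direction. The genes with the largest ratios, among those with 200 or more reads of which at most 90% lay at 1 site, showed this. In 8 of the 12 with the highest ratio toward G35 the main site had no read in G45. Outside their main sites these 12 genes together held 346 reads in G35 and 302 in G45, a log2 ratio of 0.48.

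LANCL1-AS1, a noncoding RNA antisense to LANCL1, held 403 reads in G35 and 15 in G45, of which 369 and 0 lay at chr2:211327347-211327366. PGAP2, which acts in the maturation of GPI anchors, held 194 and 8 reads, and SOCS5, a suppressor of cytokine signaling, 256 and 27. Both have their main site in an intron. XIAP, an inhibitor of caspases, held 390 and 58 reads, with its main site in the 5′ UTR. MCTS1, a factor of translation reinitiation, held 193 and 22, and DIP2A 299 and 41, both with the main site in a GENCODE exon. ABCC12, KLHL13, a substrate adaptor of a ubiquitin ligase, and RGS12, a regulator of G protein signaling, held 260 and 20, 306 and 33, and 196 and 22 reads. ENSG00000268797, a protein-coding entry on chromosome 19 without a symbol, held 398 and 38, with its main site in a repeat. The 12 folds ran from 8.12 to 31.7.

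By the same rule of 200 or more reads with at most 90% at 1 site, the 12 folds toward G45 ran from 4.05 to 7.60, and none of these 12 main sites was empty in G35. Genes outside that rule had larger ratios in both directions, such as MARS2, with 220 and 5 reads, toward G35 and ENSG00000248484, with 4 and 300 reads, toward G45. The latter was named after its values were seen. BTBD16 held 23 reads in G35 and 217 in G45, and GABRR1, a subunit of GABA receptors, held 25 and 178. RYR3, a calcium release channel, held 136 and 725, of which 79 and 640 were at a repeat-annotated site. APLF, a DNA repair factor, held 92 and 523, ELK3, an ETS transcription factor, 51 and 298, and COPS2, a subunit of the COP9 signalosome, 80 and 397. COPS2 did not keep its direction, with a log2 ratio of 2.03 in the clusters tables and -0.08 without its main site. Outside their main sites, the 12 genes held 251 reads in G35 and 528 in G45. Of the 8 genes with the most reads in each slice, 7 were the same, and 5 of the 8 in G35 have a main site annotated as rRNA. HASPIN, a kinase that phosphorylates histone H3, held 120267 reads in G35 and 61286 in G45, with 99.98% of them at 1 site annotated as coding. ANKRD30BL held 100350 and 52735. SLCO5A1 was the other way, with 275250 and 546874 reads. In ANKRD30BL and SLCO5A1 the main site, with 58.95% and 61.1% of the reads, is annotated as rRNA and lies outside GENCODE exons.

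Sites were then separated into those found in 1 slice only and those shared by an overlap of 1 bp on the same strand. G35 had 104814 sites of 5 or more reads, of which 63208 (60.3%, Wilson interval 60.01 to 60.60) had no G45 site of any depth. G45 had 91706, of which 51816 (56.5%, interval 56.2 to 56.8) had no G35 site. The share found in the other slice was nearly the same function of depth in both. It was 24.2% and 24.3% at 5 to 9 reads, 69.2% and 69.0% at 10 to 24 reads, and 93.8% and 94.4% at 25 to 99 reads. From 100 to under 1000 reads the slices parted: 85 of 3417 sites in G35, and 13 of 4211 in G45, had no counterpart. At 1000 or more reads, 652 of 654 in G35 and 817 of 817 in G45 were shared.

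**Figure D5:**
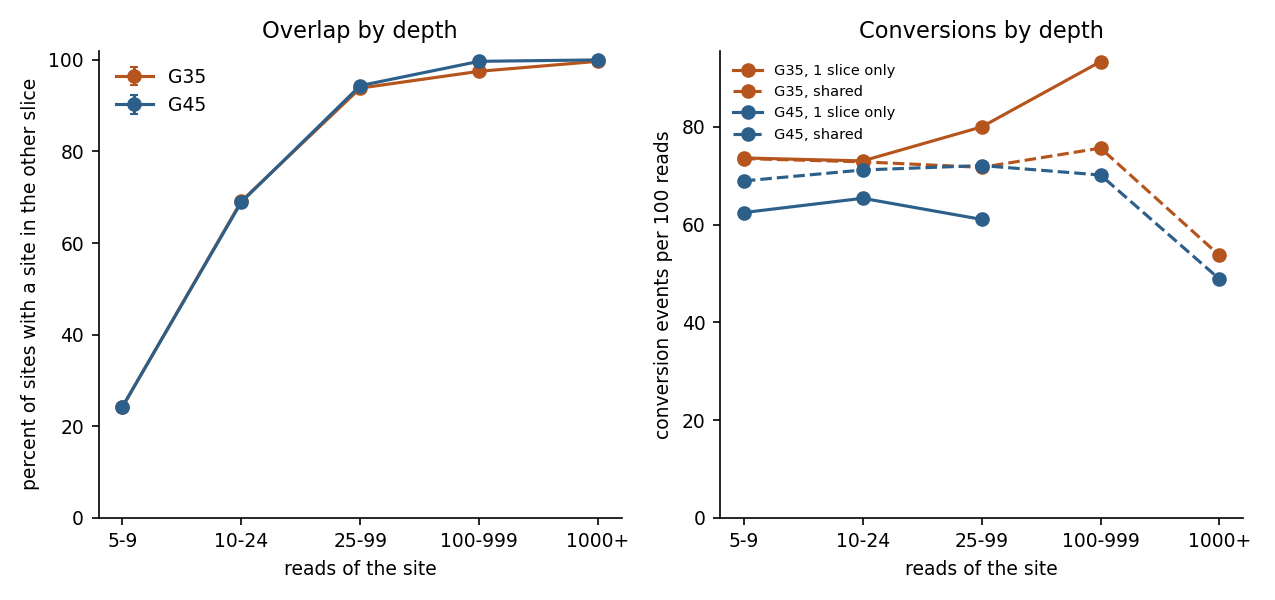
Left, percent of sites of each read depth with an overlapping site in the other slice, with Wilson intervals smaller than the points; right, conversion events per 100 reads by depth for sites in 1 slice only (solid lines) and shared sites (dashed lines), for classes of 20 or more sites. The overlap rises from 24.2% and 24.3% to 99.7% and 100%, and sites only in G35 lie above sites only in G45 at each depth shown for both.

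The sites with the most reads that were absent from the other slice are printed with T in capitals, since only T can show a conversion. The G35 site on the Y chromosome annotated as rRNA, with 703 reads, is left out.
G35 only, chr20:38279975-38279993, minus strand: TcTTcaTTagTaTaTTgga
G35 only, chr17:78484155-78484174, minus strand: cagcTgggaacgTggggagg
G35 only, chr2:23409812-23409831, plus strand: TTaagaTTcTggagTcaggg
G35 only, chrX:14343400-14343417, plus strand: aaaaTcTTggggaacgaa
G45 only, chr1:204996147-204996166, minus strand: gTgTTTgTTTcagTgTggaa
G45 only, chr5:176144852-176144871, minus strand: gTgTgaaTcacTcagggcTc
G45 only, chr18:52314303-52314320, plus strand: aTgagTTcagTTggTaga
G45 only, chr15:47133297-47133314, plus strand: gTggTagTcTggaTTgga
G45 only, chr15:73356621-73356638, plus strand: cTgagcTcagcTggTaga
The 4 G35 sites held 1361, 1025, 936 and 519 reads, or 220.0, 165.7, 151.3 and 83.9 RPM, and all are annotated as intergenic. The 5 G45 sites held 722, 285, 174, 161 and 130 reads. A site at chr18:35542444-35542461 also held 130. The G35 sites were deeper, and 3 of the 4 had 100 or more events per 100 reads, while the chromosome 17 site had 1 event on 1025 reads. The G45 sites on chromosome 18 at 52314303 and on chromosome 15 at 73356621 are near copies of each other, with 15 of 18 bases equal. The latter, inside NEO1, had no conversion on its 130 reads and the former had 174 on 174 reads.

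Base composition differed between sites only in G35 and sites only in G45. Sites only in G35 were 25.9% ± 14.1 G and 29.96% ± 13.8 T (SD over 63208 sites), and sites only in G45 were 23.6% ± 13.7 G and 32.9% ± 15.1 T (SD over 51816 sites). Shared sites were 29.6% G in G35 and 29.5% in G45, and 28.6% and 28.7% T. Shared sites are largely the same places in both slices, so their likeness follows from the overlap rule and is no contrast. The differences between slices were smaller than the spread over sites. Of sites only in G35, 57.9% ended in G, the base after which RNase T1 cuts, compared to 50.9% in G45, and 50.7% followed a G in the genome compared to 46.3%. In shared sites the last base was G in 33.0% and 31.5%. The differences in T and in the last base lay at shallow sites. At 25 to 99 reads, sites in 1 slice only were 30.1% T in G35 and 29.1% in G45, and 27.2% and 28.3% of them ended in G.

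Hexamers were counted in the same sites. Of 3726 hexamers present in 100 or more sites found in 1 slice only, the highest ratio toward G35 belonged to GGGCGG, which was in 375 sites only in G35 (0.593%) and 146 only in G45 (0.282%), a ratio of 2.10. Next stood GGCGGG with 346 and 135 sites. The hexamer CACGGC followed with 91 and 36 sites, then CGGTGC with 133 and 53, and CAACGG with 83 and 33. Of these 5, the first pair overlap each other. Toward G45 the highest ratio was that of TGCGTA, in 36 sites only in G35 and 64 only in G45, followed by AACCGA with 45 and 72. The hexamer TTTTAT was the frequent one of the 5, in 3.77% of sites only in G35 and 6.72% of sites only in G45. The remaining pair were GCGTAG with 53 and 77 sites, and CGTAGC with 41 and 59. In shared sites, which are largely the same places in both slices, TTTTAT was in 2.14% and 2.02%.

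Conversions were more frequent in G35 at sites in 1 slice only. Sites only in G35 had 74.5 events per 100 reads and sites only in G45 had 63.1. At shared sites the values were 59.8 and 55.2. G45 had the lower value despite more T in its sites, so that per 100 T covered by reads, at sites of up to 30 bases, the values were 12.1 and 10.03. The gap had the same direction in coding sequence, UTRs, introns, repeats, lincRNAs and between genes, and of these was widest in 3′ UTRs, where sites only in G35 had 80.4 events per 100 reads and sites only in G45 had 46.7. In coding sequence the values were 79.7 and 60.2, in introns 77.8 and 59.0, and between genes 72.1 and 67.9. Sites without any conversion made up 36.6% of sites only in G35 and 40.9% of sites only in G45. The HuR replicates, at the 6243 merged sites given above, had pooled values of 48.3 and 68.3 events per 100 reads. These lay further apart than 74.5 and 63.1, or 59.8 and 55.2, although the sites were taken by a different rule.

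The authors' clusters, which are the parts of sites where conversions concentrate, were placed by their transcript class. Coding sequence held 6.38% of 68049 G35 clusters and 4.599% of 57710 G45 clusters, a difference of 1.78 percentage points (Newcombe interval 1.53 to 2.03). Introns held 27.4% and 24.1%, a difference of 3.32 points (2.84 to 3.803), and 3′ UTRs 3.99% and 3.11%. Intergenic clusters were the counterpart, with 42.6% in G35 and 48.0% in G45. Repeats held 15.2% and 15.8%, a difference of -0.60 points (-1.003 to -0.199). The differences in coding sequence and introns did not hold at deep clusters. Among clusters of 25 or more reads they were -0.03 and -0.21 points. By reads the largest difference was in rRNA, which held 24.6% of the reads in G35 clusters and 29.4% in G45 clusters. Over all sites the difference was smaller, with 231340 RPM in G35 and 252322 in G45, a log2 ratio of -0.13. Single rRNA sites did not share this direction. Of 216 merged rRNA sites, 119 were higher in G35, with a median log2 ratio of 0.16. Clusters in microRNAs numbered 58 in G35 and 30 in G45.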

How the data were processed

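Background libraries G35 and G45 of HEK293 cells were compared, and HuR replicates 1 and 2 were used beside them. The authors trimmed adapters, aligned single-end reads to hg19 with Bowtie, and kept in PARalyzer only reads with a single placement whose mismatches, 2 at most, were T-to-C. The deposited tables hold whole-number counts of reads, conversion locations and conversion events per site (groups) or cluster, which the authors did not normalize. A read can carry more than 1 event, and PCR duplicates can raise a site's count, since their removal is not stated in the sources used here.

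Positions were read as 1-based. Merged sites were given to GENCODE release 44 genes on GRCh37 by their midpoint on the same strand, exon before intron and then the shortest gene. RPM ratios used all reads of a library with 0.5 reads added, for genes or merged sites with 50 or more reads, and 4-fold was a rule of size. Ratio intervals are conditional exact, and shares have Wilson, Newcombe or exact binomial intervals at 95%. The limit on 0 events is the upper exact bound. Of 50 microRNA sites, 45 matched a RefSeq mature sequence over at least 18 bases.

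Genes, sites and lists were chosen with earlier results of these data known. Named genes were the 12 with the largest ratio in each direction with 200 or more reads and at most 90% at 1 site, the 8 with the most reads in each slice, and in each of 22 lists the 3 with the most reads and the extremes, of which the text gives a part. Named sites were the 5 with the most reads in each class and named hexamers the 5 with the largest ratios. Small RNA sites, tRNA ends and snoRNA conversions were named after their values were seen. Alternatives changed the scaling, pseudocount, minimum, gene assignment, overlap rule and table. Python 3.11.15, numpy 2.4.6, pandas 2.3.3, scipy 1.17.1, pysam 0.24.0, matplotlib 3.10.9, bedtools 2.31.1 and samtools 1.23.1 were used. The overlap, merging and ratio steps were tested on simulated data.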

Additional observations from a re-analysis of the deposited data

How the results depend on the processing

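No paired analysis was possible because each slice is a single library and no test was made. For the same reason no replicate could be left out. The median log2 ratio of microRNA genes was between 1.24 and 1.38 under the 3 other scalings, a pseudocount of 5 reads, a minimum of 10 reads and assignment by each site's own midpoint (the last and all alternatives for microRNAs and snoRNAs were chosen after seeing the data). It was 0.83 over 13 genes with 200 or more reads, 7.20 over 28 genes in the clusters tables, and 0.13 over the 5 that remained when sites with more than 1 candidate gene were left out, an alternative that drops every microRNA gene lying inside another gene. The difference in events per 100 reads at snoRNA sites, 24.7, was 23.3 with 10 or more reads in both slices, 24.96 without the deepest site and 40.1 at the 5 sites with 50 or more reads.

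The counts of genes at least 4-fold higher, 242 in G35 and 201 in G45, became 1345 and 1260 with a minimum of 10 reads, 81 and 49 with 200 reads, and 43 and 38 without the deepest site of each gene. They were 187 and 131 with a pseudocount of 5 and 449 and 258 in the clusters tables. COPS2 turned to a log2 ratio of 2.03 in the clusters tables, and the cause was not tested. The other 23 named genes kept their sign wherever they had 50 reads left, but not their size. Without the deepest site 10 of the 24 had a value and 8 of these moved, such as APLF from -2.22 to -0.21, RYR3 from -2.12 to -0.29 and DIP2A from 3.14 to 0.65.

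Sites without a partner were 71.95% of G35 and 67.97% of G45 when only partners of 5 or more reads counted, and 71.6% and 66.5% in the clusters tables. With 25 or more reads they were 558 sites (4.76%) and 501 (3.65%). With G45 thinned to the G35 total they were 61.0% in G35, and 34075 sites (48.8%) in G45. With an overlap required over 0.5 of the shorter site the G35 share was 60.7%.

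The difference in coding clusters, 1.78 points, was 1.499 by reads, 2.27 with 2 or more conversion locations and -0.030 at 25 or more reads. In introns, 3.32 became 1.37 by reads and -0.21 at 25 or more reads. In repeats, -0.60 became 0.0021 by reads and -0.18 at 25 or more reads. The difference in G share was 2.61 points at 25 or more reads and 1.91 with the stricter partner rule, and in T share -2.68 by reads, 0.75 at 25 or more reads and -2.46 with the stricter rule. The difference in events per 100 reads at sites in 1 slice only, 11.4, was 10.97 as a mean of sites, 20.8 at 25 or more reads and 10.6 with the stricter rule. At shared sites, 4.66 became 2.83, 4.54 and 4.53, and 4.02 without rRNA and mitochondrial sites. The cause of these changes was not tested. What the gel lane, the culture or the library preparation added to any difference cannot be told apart from the slice.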
